A study of Saccharomyces cerevisiae with 12 samples.

Results

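The phosphate starvation (PHO) genes described here were 10 budding yeast genes chosen by their systematic names: PHO3 (YBR092C), PHO5 (YBR093C), PHO8 (YDR481C), PHO11 (YAR071W), PHO12 (YHR215W), PHO84 (YML123C), PHO89 (YBR296C), PHM8 (YER037W), SPL2 (YHR136C) and VTC3 (YPL019C). All 10 were among the 6174 open reading frames (ORFs) of the deposited table. The study compared yeast strains with different levels of Hcm1, a forkhead transcription factor, on 12 2-colour arrays, with 2 dye-swapped arrays for each of 6 comparisons. Every value is a log2 ratio, so that 1 stands for 2-fold, after centring the array to a median of 0.

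All strains derived from CML128, a MATa strain with the markers his4, trp1, ura3-52 and a leu2 allele, which served as wild type. The deletion strain carried hcm1::natMX4, the tagged strain carried HCM1-3HA::natMX4 at its own promoter, and the tet strain, made from the tagged strain, carried tetO7-HCM1-3HA::kanMX4, a promoter that doxycycline represses. Cells grew in YPD at 30 °C to an A600 of 0.5. The 3 comparisons in which the level of HCM1 differed by design were the deletion strain over wild type, the tet strain over the tagged strain, both without doxycycline, and the untreated tet strain over the tet strain treated with doxycycline for 10 h. As controls served 3 further comparisons: tagged strain over wild type, and tagged cells treated with doxycycline for 4 h or for 10 h over untreated tagged cells. The tet strain and its comparator both carried the tag, and the labels name 1 strain of each genotype and no dose of doxycycline. Ratios carry no level, so mating type markers could not be used to check the cells.

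In budding yeast, phosphate starvation is read by the cyclin-dependent kinase Pho85 with its cyclin Pho80, which is held inactive by the inhibitor Pho81 when phosphate is scarce. The transcription factor Pho4, no longer phosphorylated, then enters the nucleus and, with Pho2, turns on genes for secreted acid phosphatases, high-affinity phosphate transporters and the synthesis of vacuolar polyphosphate. YPD is rich in phosphate, a state in which these genes are largely repressed.

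HCM1 itself stood at -3.36 ± 0.26 (SD, n = 2 arrays) in the deletion strain over wild type, at 5.17 ± 0.20 in the tet strain over the tagged strain (limma, adjusted p = 0.0487) and at 5.65 ± 0.20 in the untreated over the treated tet strain (adjusted p = 0.0273), in the directions the labels give; the deletion value did not pass (adjusted p = 0.811). For tagged cells over wild type, the 2 deposited columns mirrored each other (r = -0.999), so that comparison rests on 1 array of unsettled sign, taken from the first column. Both arrays gave a value for 5161 ORFs in the deletion strain, 3955 and 4307 in the comparisons of the tet strain, and 2495 and 2312 in tagged cells treated for 4 h and 10 h. The labels do not say that the arrays of a comparison came from separate cultures, and by the series text the dyes were exchanged on the same RNA, so each SD below is a spread over 2 arrays that may be technical.

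Cover of the PHO genes was uneven. PHO3, PHO5 and PHO8 had a value on all 11 arrays used, PHO11 and VTC3 on 10, PHO12 on 9, SPL2 and PHM8 on 7 and PHO89 on 5. PHO84 had a value on 1 array alone, so the principal high-affinity transporter gene could be compared nowhere. What the deposited table's missing values stand for is not stated. With both arrays, 8 PHO genes were measured in the deletion, 7 in the tet strain over the tagged strain, 8 in the untreated over the treated tet strain, and 5 in tagged cells at each time of doxycycline.

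**Figure D1:**
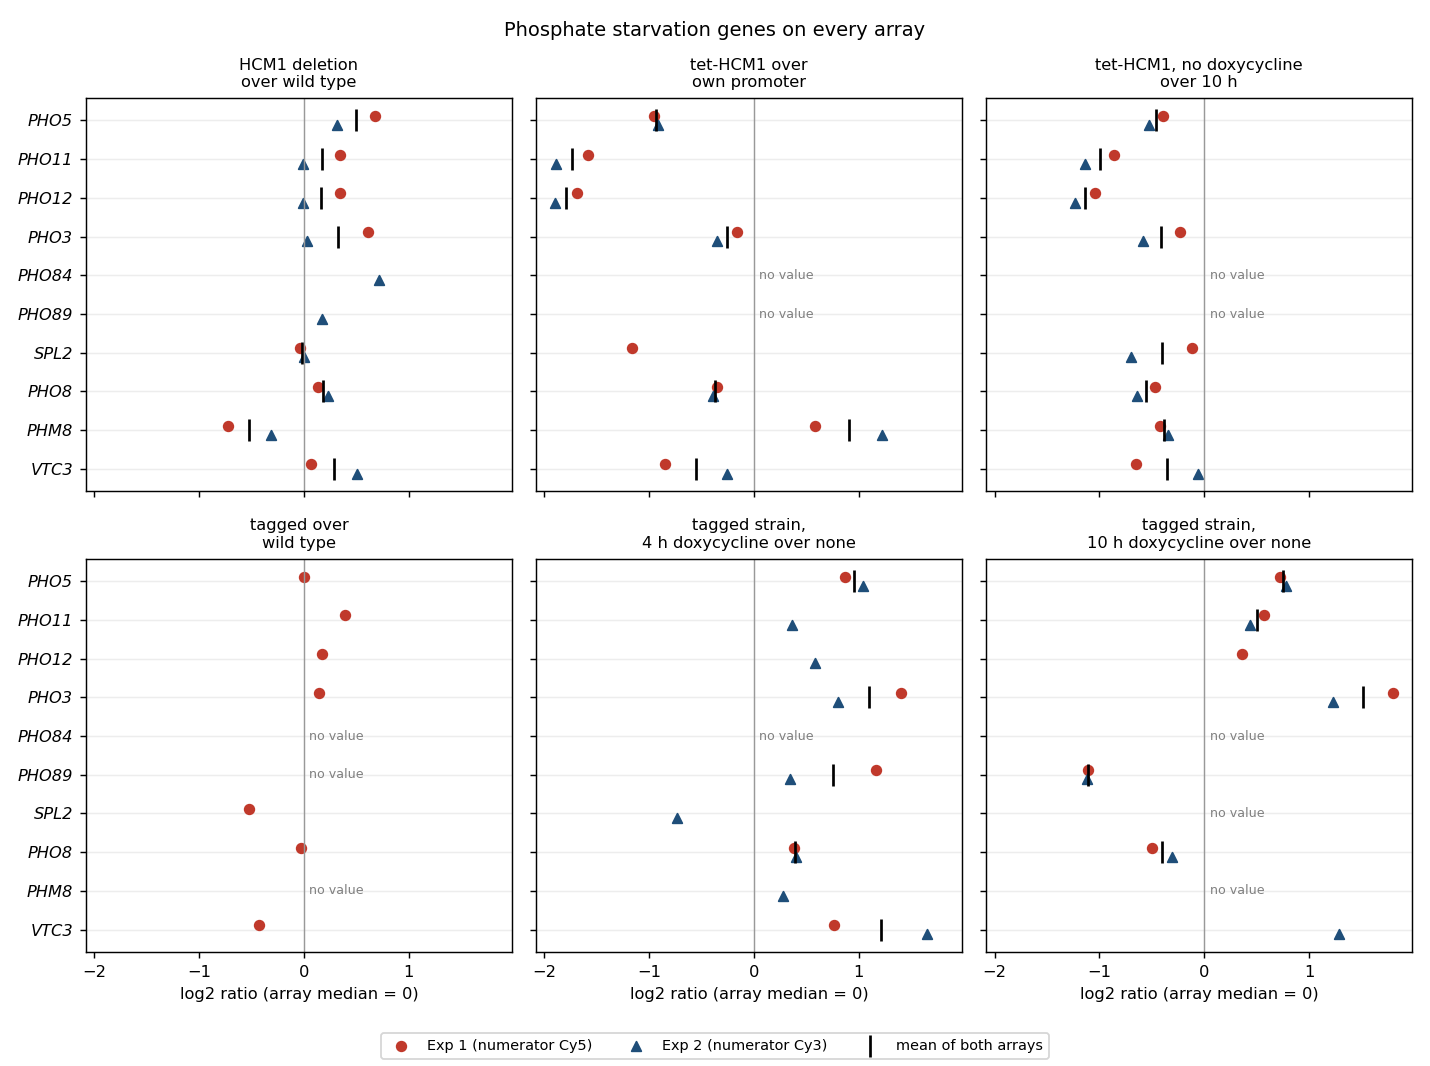
Log2 ratios of the 10 PHO genes on every array, 1 panel per comparison; circles are Exp 1 (numerator in Cy5), triangles Exp 2 (numerator in Cy3), bars the mean of both arrays. PHO11 and PHO12 lay between -1.90 and -1.58 on both arrays of the tet strain over the tagged strain, and PHO3 between 0.80 and 1.80 on the 4 arrays of tagged cells with doxycycline.

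The secreted acid phosphatase genes had ratios below 0 in the strain with HCM1 under the tet promoter. PHO5, the main repressible acid phosphatase gene, stood at -0.96 and -0.91 on the arrays of the tet strain over the tagged strain (mean -0.94 ± 0.03, 1.91-fold lower, n = 2 arrays). PHO11, a close homologue, stood at -1.58 and -1.89 (mean -1.73 ± 0.21, 3.33-fold lower), and PHO12, nearly identical to PHO11, at -1.69 and -1.90 (mean -1.79 ± 0.15, 3.46-fold lower). Of the 3955 ORFs measured on both arrays, only 1 had a lower mean than PHO12, PHO11 ranked 3 from the lowest and PHO5 ranked 38. PHO3, the neighbour of PHO5 in the genome and an acid phosphatase gene known to be repressed by thiamine rather than by phosphate, was nearer to 0, at -0.17 and -0.35 (mean -0.26 ± 0.13). Ratios per total RNA cannot tell fewer cells that expressed a gene from less RNA per cell.

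The transporter side was hardly measured in this comparison. SPL2, which encodes a small inhibitor of low-affinity phosphate uptake, had a value on the first array only, -1.16, and the transporter genes PHO84 and PHO89 had none. Among genes for intracellular phosphate stores, VTC3, of the complex that makes vacuolar polyphosphate, stood at -0.85 and -0.25 (mean -0.55 ± 0.42), and PHO8, for the vacuolar alkaline phosphatase, at -0.35 and -0.39 (mean -0.37 ± 0.03). PHM8, for a lysophosphatidic acid phosphatase that also acts on nucleotides, went the other way, at 0.58 and 1.22 (mean 0.90 ± 0.45), and was the PHO gene with the highest ratio here.

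Of the 7 PHO genes with both arrays, 6 were below 0, with a median of -0.55, beside 51.6% of all ORFs below 0 and a median of -0.01. The median was -0.91 over the 8 on the first array and -0.39 over the 7 on the second. PHO11 and PHO12 were at least 2-fold lower on both arrays, as were 0.556% of all ORFs. PHO5 joined them at 1.5-fold, beside 2.07% of all ORFs. None of the 7 was at least 1.5-fold higher on both, beside 4.88%, or 2-fold higher, beside 1.16%. As PHO11 and PHO12 are nearly identical, they are not independent in these counts or in those below. In the limma test, whose residual is the spread of the control comparisons, 5 of the PHO genes had the control values needed and none passed a Benjamini-Hochberg adjusted p of 0.05, beside 0.0411% of all ORFs, which is HCM1 alone of 2435. PHO11 had an unadjusted p of 0.00373 and an adjusted p of 0.749, and PHO5 an adjusted p of 1.00; PHO12 and PHM8 could not be tested. PHO5 also stood at 0.95 and 0.75 in the doxycycline controls that set this residual, and its standard error was 0.53. With arrays taken as replicates, PHO5, PHO11, PHO12 and PHM8 passed, 4 of 8 (limma, adjusted p from 0.00113 to 0.0386), beside 5.58% of all ORFs. With arrays taken as replicates and the array number as a block (limma), 7 of 8 PHO genes passed, PHO3 being the exception (adjusted p = 0.128), beside 20.9% of all ORFs; that test counts only the spread between arrays.

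In the untreated over the treated tet strain, all 8 PHO genes with both arrays were below 0, beside 50.1% of all ORFs, in a narrow band apart from PHO11 and PHO12. PHO12 stood at -1.04 and -1.24 (mean -1.14 ± 0.14, 2.20-fold lower) and PHO11 at -0.86 and -1.14 (mean -1.0 ± 0.20). The other 6 had means from -0.56 ± 0.12 (PHO8, at -0.47 and -0.64) to -0.35 ± 0.42 (VTC3, at -0.65 and -0.06). PHO5 lay between them at -0.39 and -0.52 (mean -0.46 ± 0.10), PHO3 at -0.23 and -0.59 (mean -0.41 ± 0.25), SPL2 at -0.12 and -0.70 (mean -0.41 ± 0.41) and PHM8 at -0.43 and -0.35 (mean -0.39 ± 0.05). PHM8, higher in the tet strain over the tagged strain, was thus lower in this comparison on both arrays. The comparisons share the tet strain without doxycycline as numerator.

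PHO12 was at least 2-fold lower on both arrays, as were 2.16% of all ORFs, and PHO11 and PHO12 at least 1.5-fold lower, beside 8.24%. None was higher by 2-fold or 1.5-fold, beside 3.2% and 8.34%. None of the 5 PHO genes tested passed (limma, Benjamini-Hochberg), beside 0.0403% of all ORFs, HCM1 alone of 2480; PHO11 had an unadjusted p of 0.0441 and an adjusted p of 0.478. Taking arrays as replicates, PHO8, PHO11 and PHO12 passed, 3 of 8, beside 21.2% of all ORFs. With the array number as a block as well, 7 of 8 passed (limma), SPL2 being the exception (adjusted p = 0.0579), but so did 46.6% of all ORFs.

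**Figure D2:**
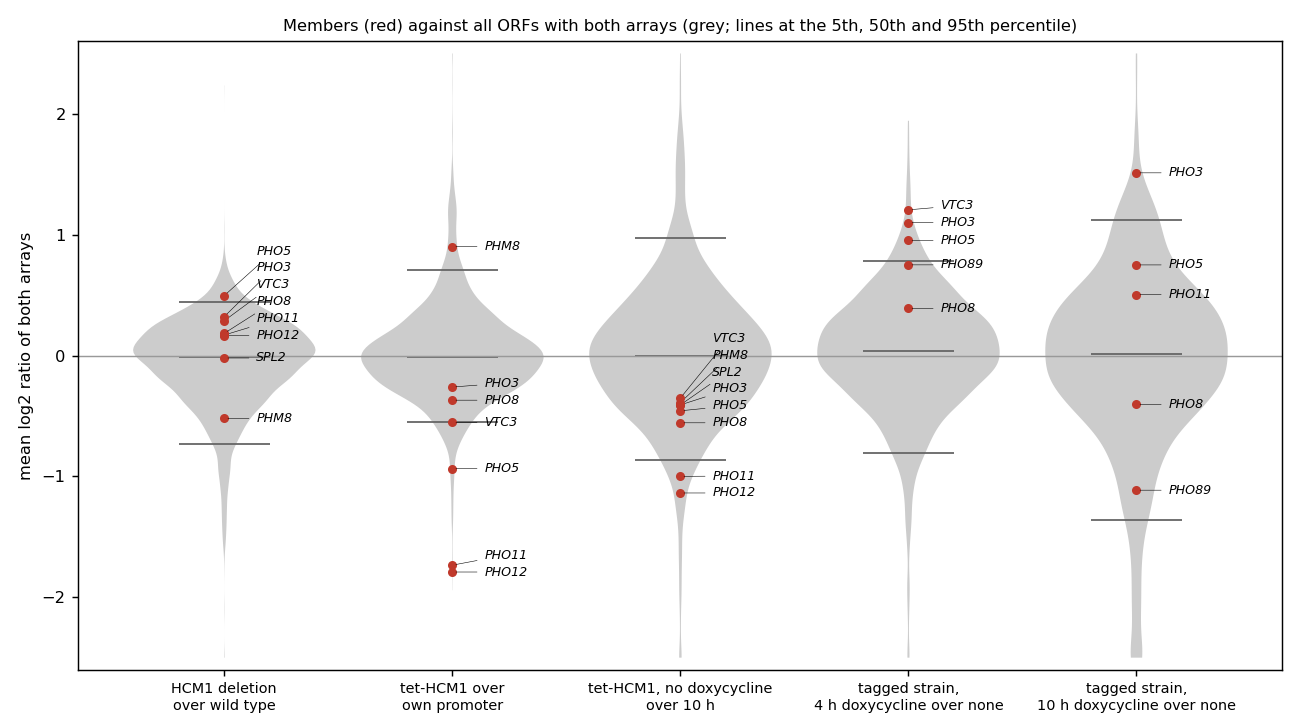
Mean log2 ratio of both arrays for the PHO genes (red, named) beside the distribution of all ORFs (grey, with lines at the 5th, 50th and 95th percentile; values beyond 2.5 either way are drawn at 2.5). In the tet strain over the tagged strain, PHO11, PHO12, PHO5 and VTC3 lay below the 5th percentile (-0.55) and PHM8 above the 95th (0.71); in tagged cells treated for 4 h, PHO3, PHO5 and VTC3 lay above the 95th (0.78).

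Several PHO genes had ratios above 0 with doxycycline in tagged cells, whose HCM1 gene has no tet promoter. HCM1 itself was above 0 in these controls, at 0.50 on the 1 array that measured it after 4 h, and at 1.37 and 0.68 (mean 1.02 ± 0.49) after 10 h. After 4 h, PHO5 stood at 0.87 and 1.04 (mean 0.95 ± 0.12), PHO3 at 1.40 and 0.80 (mean 1.10 ± 0.42) and VTC3 at 0.76 and 1.65 (mean 1.21 ± 0.63). All 5 PHO genes with both arrays were above 0, while 46.7% of all ORFs were below 0. The median of these 5 was 0.95, beside 0.04 for all ORFs. Over the 9 PHO genes measured on the second array the median was 0.40, and 0.58 with a value on either array. PHO89, for a sodium-coupled phosphate transporter, stood at 1.16 and 0.34, and PHO8 at 0.38 and 0.40. Among those with 1 array, PHO12 stood at 0.58, PHO11 at 0.36, PHM8 at 0.27 and SPL2, the only one below 0, at -0.74.

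PHO3, PHO5 and VTC3 were at least 1.5-fold higher on both arrays after 4 h, beside 5.09% of all ORFs, and none was 2-fold higher on both, beside 1.08%. None was lower by 2-fold or 1.5-fold, beside 1.76% and 5.13%. None of the 3 tested passed (limma, adjusted p = 0.959 for each), beside 0% of all ORFs; 44 of 1644 ORFs had an unadjusted p below 0.05. When the 10 h control was left out of the residual, which then rests on the 1 array of tagged cells over wild type, 2 of 4 PHO genes passed, PHO3 (limma, adjusted p = 0.0376) and VTC3 (adjusted p = 0.0142), beside 2.93% of all ORFs. PHO3, PHO5 and VTC3 passed with arrays as replicates, 3 of 9, beside 12.3% of all ORFs, and with the array number as a block as well, 7 of 9 did (limma), beside 33.3% of all ORFs.

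After 10 h of doxycycline the acid phosphatase genes were still above 0. PHO3 was the highest, at 1.80 and 1.22 (mean 1.51 ± 0.41, 2.85-fold), and rose in the limma test (adjusted p = 0.0409), 1 of 3 PHO genes tested, beside 6.57% of all ORFs called and 2.31% called higher. That call was lost in 7 alternatives, with adjusted p from 0.0962 (values as deposited) to 0.264 (columns of the tagged strain averaged). PHO5 stood at 0.72 and 0.78 (mean 0.75 ± 0.04, adjusted p = 0.325), PHO11 at 0.57 and 0.44 (mean 0.50 ± 0.09) and PHO12, on the first array alone, at 0.36. VTC3 had a value on the second array, 1.29.

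PHO89 and PHO8 were below 0 after 10 h although both were above 0 after 4 h. PHO89 stood at -1.11 and -1.12 (mean -1.11 ± 0.00), against 0.75 ± 0.58 at 4 h. PHO8 stood at -0.50 and -0.31 (mean -0.41 ± 0.13), against 0.39 ± 0.01 at 4 h. With arrays as replicates, the difference between the times was 1.86 for PHO89 (SE 0.31, limma, adjusted p = 0.0101) and 0.80 for PHO8 (SE 0.21, adjusted p = 0.0412), beside 7.92% of all ORFs called in that contrast and 25.5% with the array number as a block. For PHO5 that difference was 0.20 (SE 0.22, adjusted p = 0.638) and for PHO3 -0.41 (SE 0.31, adjusted p = 0.471). The 2 times share the tagged strain without doxycycline as denominator, and this contrast could not be tested with the control residual.

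Of the PHO genes after 10 h, PHO3 was at least 2-fold higher on both arrays, as were 2.85% of all ORFs, and PHO89 at least 2-fold lower, as were 6.66%. At 1.5-fold PHO3 and PHO5 were higher, beside 10.3% of all ORFs, and PHO89 lower, beside 12.2%. With arrays as replicates 5 of 7 PHO genes passed (limma), all but PHO8 and PHO12, beside 33.7% of all ORFs, and with the array number as a block 6 of 7, beside 53.6%, so a pass there says little about the PHO genes.

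The tet strain over its own 10 h of doxycycline therefore has to be read beside the effect of 10 h of doxycycline in the tagged strain. The doxycycline effect in the tagged strain less that in the tet strain is the sum of both log ratios, as the tet comparison has the treated cells below the line. It was 0.29 ± 0.05 for PHO5 (SD over Exp 1 and Exp 2; limma, adjusted p = 0.824), -0.50 ± 0.29 for PHO11 and 1.10 ± 0.66 for PHO3 (adjusted p = 0.328). PHO5, at -0.46 untreated over treated in the tet strain and at 0.75 treated over untreated in the tagged strain, thus had the higher signal with doxycycline in both, as did PHO11, at -1.0 and 0.50. PHO8 differed in sign: doxycycline went with a ratio of 0.56 in the tet strain and -0.41 in the tagged strain, a difference of -0.96 ± 0.01 (limma, adjusted p = 0.316, and adjusted p = 0.00547 with arrays as replicates). None of the 3 PHO genes tested passed, beside 6.72% of all ORFs. PHO3 and PHO8 passed with arrays as replicates, 2 of 6, beside 33.5% of all ORFs. With the array number as a block as well, 5 of 6 passed, PHO5 being the exception (limma, adjusted p = 0.165), beside 54.1% of all ORFs.

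The 3 comparisons that join the tet and the tagged strain also give the tet strain over the tagged strain with both in 10 h of doxycycline, a ratio that no array measured. For HCM1 it was -1.51 ± 0.48, against 5.17 without doxycycline, so the tet strain no longer had the higher HCM1 signal. That value includes the 1.02 of HCM1 in treated tagged cells. In the same derived ratio PHO5 stood at -1.29 in Exp 1 and -1.17 in Exp 2 (mean -1.23 ± 0.08), PHO11 at -1.29 and -1.18 (mean -1.24 ± 0.08), and PHO12, with Exp 1 alone, at -1.0. These lie beside -0.94, -1.73 and -1.79 with neither strain treated. PHO3 stood at -1.74 and -0.99 (mean -1.36 ± 0.53), against -0.26 untreated, and VTC3 at -1.48 in Exp 2 alone. PHO8 was the only PHO gene above 0, at 0.62 and 0.56 (mean 0.59 ± 0.04).

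None of the 3 PHO genes tested passed in this derived ratio (limma; PHO5, adjusted p = 0.947; PHO3, adjusted p = 0.947; PHO8, adjusted p = 0.990), beside 0.185% of all ORFs. PHO5 (adjusted p = 0.0196) and PHO11 (adjusted p = 0.0368) passed with arrays as replicates (limma), beside 7.42% of all ORFs, and with the block all 6 did, beside 30.7%. Against the tagged strain without doxycycline, the tet strain after 10 h of it stood at -0.48 ± 0.13 for PHO5, -0.74 ± 0.01 for PHO11, -0.65 ± 0.01 for PHO12, 0.15 ± 0.12 for PHO3 and 1.29 ± 0.39 for PHM8. On that scale HCM1 stood at -0.48 ± 0.00. The ratio is the difference of 2 comparisons whose arrays of the same Exp number deviated together (r = 0.68). Deviations that both share cancel in it, so an SD near 0 here is no measure of precision. The SDs in the 2 comparisons were 0.21 and 0.20 for PHO11, and 0.15 and 0.14 for PHO12.

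**Figure D3:**
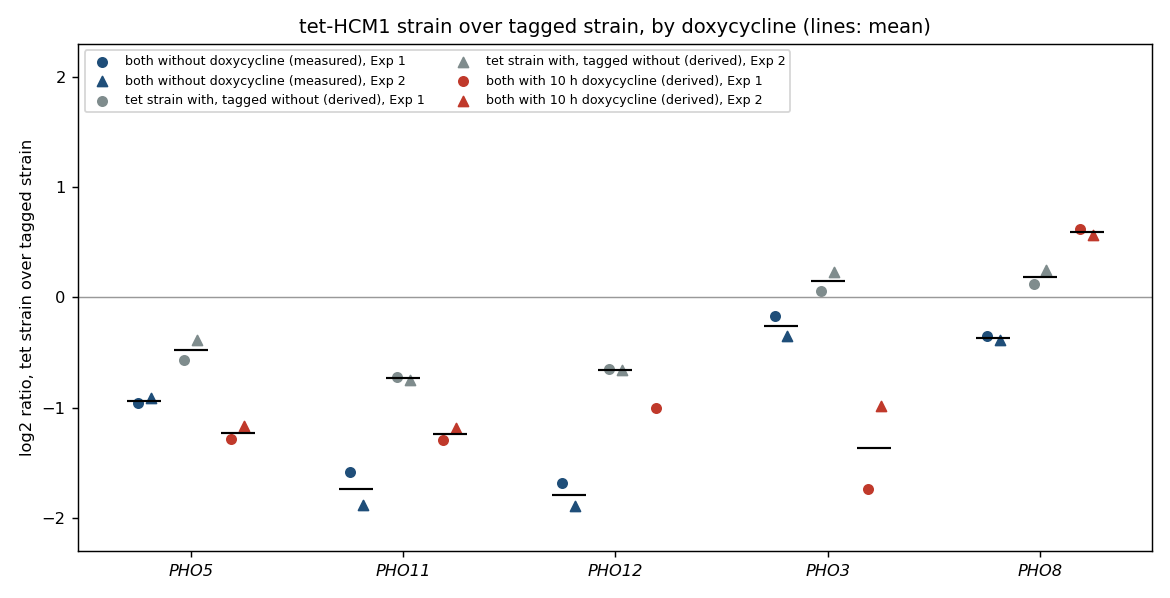
Log2 ratio of the tet strain over the tagged strain for 5 PHO genes, as measured with neither strain treated (blue) and as derived from several comparisons with the tet strain treated (grey) or both treated with doxycycline for 10 h (red); circles are Exp 1, triangles Exp 2, lines the mean. PHO5, PHO11 and PHO12 were below 0 in all 3; PHO3 stood at -0.26, 0.15 and -1.36, and PHO8 at -0.37, 0.19 and 0.59.

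In the deletion strain over wild type, the 8 PHO genes with both arrays had means from -0.52 to 0.50. PHO5 was the highest, at 0.68 and 0.32 (mean 0.50 ± 0.26). It ranked 169 from the highest of 5161 ORFs, above the 95th percentile (0.44). PHM8 was the lowest, at -0.72 and -0.32 (mean -0.52 ± 0.29), above the 5th percentile (-0.73). PHO3 stood at 0.61 and 0.03, PHO11 at 0.35 and -0.01 and PHO12 at 0.34 and -0.01, so these 3 were above 0 on the first array and at about 0 on the second. VTC3 had 0.07 and 0.50, PHO8 0.13 and 0.23, and SPL2 a mean of -0.02 ± 0.03. The only value of PHO84, which encodes the high-affinity proton-coupled phosphate transporter, came from the second array of this comparison, at 0.72, and PHO89 had 0.18 there.

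In the deletion 6 of 8 PHO genes were above 0, while 50.9% of all ORFs were below 0. The median of the PHO genes was 0.18, beside -0.01 for all ORFs. It was 0.24 on the first array alone and 0.10 on the second, which measured all 10. None was at least 1.5-fold changed on both arrays, beside 0.213% of all ORFs higher and 5.54% lower by that much. None was 2-fold changed, beside 0% and 1.53%. All ORFs here include the 193 of chromosome IX, which had a median of -0.92 and 96.9% below 0. Their part in these shares and in the percentiles was not counted. The PHO genes lie on other chromosomes. None of the 5 tested passed (limma, adjusted p = 1.00 for each), beside 0% of all ORFs; 29 of 2538 ORFs had an unadjusted p below 0.05. With arrays as replicates and the array number as a block, PHO5 (adjusted p = 0.0197) and PHM8 (adjusted p = 0.0325) passed, 2 of 9, beside 19.8% of all ORFs; without the block none did, beside 3.75%.

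In the tagged strain over wild type, on its 1 array, PHO5 stood at 0.00, PHO8 at -0.03, PHO3 at 0.14, PHO12 at 0.17, PHO11 at 0.39, VTC3 at -0.43 and SPL2 at -0.52. With the sign unsettled, only the sizes can be read, and all 7 were under 1.5-fold. So were most ORFs, whose 5th and 95th percentiles on that array were -0.57 and 0.47. None of the 3 tested passed (limma), beside 0% of all ORFs, and none of 7 with arrays as replicates, beside 0.0302%, or with the block, beside 0.123%; 2 of 1644 ORFs had an unadjusted p below 0.05.

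Among themselves, PHO11 and PHO12 had close values on every array that measured both. Their difference, PHO12 less PHO11, ranged from -0.22 to 0.22 over 9 arrays with a median size of 0.10, while their ratios ran from -1.90 to 0.58. The genes are nearly identical, and how far an array feature for one also bound RNA of the other is not given, so they cannot be counted as independent. PHO3 and PHO5, adjacent and also homologous, parted more: PHO3 less PHO5 ranged from -0.28 to 1.08 over 11 arrays. PHO3 was the higher of the pair on both arrays of the tet strain over the tagged strain and after 10 h of doxycycline.

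**Figure D4:**
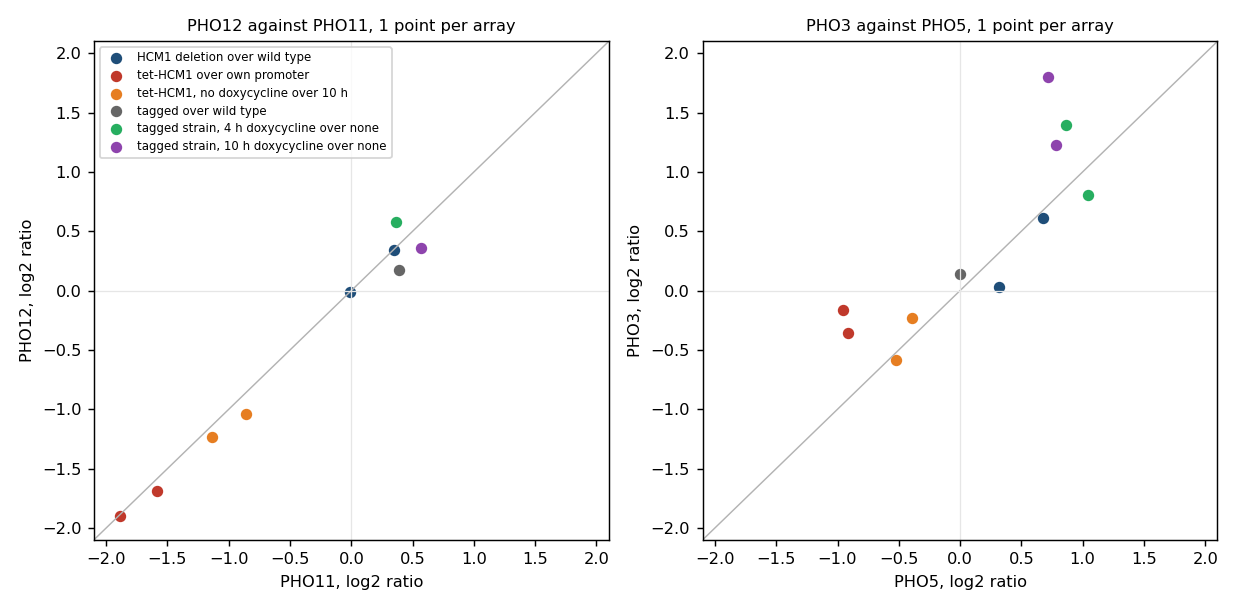
Log2 ratio of PHO12 against PHO11 (left) and of PHO3 against PHO5 (right), 1 point per array, coloured by comparison; the grey diagonal marks equal values. PHO11 and PHO12 lay along the diagonal, within 0.22 of it, while PHO3 lay up to 1.08 above PHO5.

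Other targets of Pho4, listed by name from textbook knowledge, gave 6 of 9 genes measured in the tet strain over the tagged strain. Of these, 5 were below 0 and 1 above, beside 51.6% of all ORFs below 0, with a median of -0.53. None of the 4 tested passed in either direction (limma), beside 0.0411% of all ORFs. GDE1, for a glycerophosphocholine phosphodiesterase, was 1.5-fold lower on both arrays, at -0.64 and -0.73 (mean -0.68 ± 0.06). In the untreated over the treated tet strain 4 of 5 were below 0, beside 50.1% of all ORFs, with a median of -0.48. In the deletion 4 of 7 were below 0, beside 50.9%, with a median of -0.18. No gene of the list passed in these (limma), beside 0.0403% and 0% of all ORFs. GIT1, for the uptake of glycerophosphoinositol and related phosphodiesters, stood in tagged cells with doxycycline at 1.81 and 1.77 after 4 h (mean 1.79 ± 0.03) and at 0.74 and 1.18 after 10 h (mean 0.96 ± 0.31); it could not be tested. By the mean of both arrays, 5 of 5 were above 0 after 4 h and 4 of 5 after 10 h, while 46.7% and 49.0% of all ORFs were below 0. On 1 array alone after 4 h, GDE1 stood at -0.13 and HOR2, which RefSeq names GPP2, at -0.86. VTC2 was split between arrays, at -0.23 and 0.69 after 4 h and at -0.54 and 0.28 after 10 h. VTC4 was split after 10 h, at -0.15 and 0.35. The medians of the list were 0.26 and 0.33, and no gene passed (limma), beside 0% and 6.57% of all ORFs.

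Of 9 signalling genes, which include PHO4, PHO2, PHO80, PHO81 and PHO85, 7 were measured in the tet strain over the tagged strain. By the mean of both arrays all 7 were below 0, beside 51.6% of all ORFs, from -0.29 to -0.04, with a median of -0.08. The arrays lay on opposite sides of 0 for PHO2 (-0.26 and 0.185), PHO85 (0.10 and -0.25) and KCS1 (-0.23 and 0.07). On the first array alone, PHO80 stood at 0.15 and PHO4 at -0.11. None of the 7 was 1.5-fold changed on both arrays. Medians of the signalling genes were -0.15 in the deletion, over 9 genes from -0.64 to 0.33, and -0.13 in the untreated over the treated tet strain, over 8 from -0.58 to 0.48. PHO81 was 1.5-fold higher on both arrays in tagged cells treated for 4 h, at 0.79 and 0.68 (mean 0.73 ± 0.08, limma, adjusted p = 0.959). PHO4 had both arrays only in the deletion, at -0.44 ± 0.08, and in the untreated over the treated tet strain, at -0.58 ± 0.43. None of the signalling genes tested passed in any comparison (limma).

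Of 10 genes of low-affinity transport and other phosphate metabolism, 7 were measured in each Hcm1 comparison, with medians of 0.24, 0.06 and 0.26 in the deletion, the tet strain over the tagged strain and the untreated over the treated tet strain. PHO91, for a vacuolar phosphate transporter, was lower in the last, at -0.73 and -0.75 (mean -0.74 ± 0.02). SYG1 was lower in the deletion, at -0.77 and -1.34 (mean -1.06 ± 0.40); its systematic name, YIL047C, places it on chromosome IX, whose 193 ORFs had a median of -0.92 in that comparison; its part in the SYG1 value was not tested. PHO13, for a phosphatase of small metabolites, was higher in tagged cells treated for 4 h, at 0.97 and 0.84 (mean 0.91 ± 0.09), and PHO88, which RefSeq now names SND3, after 10 h, at 1.39 and 1.04 (mean 1.22 ± 0.24, limma, adjusted p = 0.0615). No gene of this list passed.

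PHO3 shares its repression by thiamine with a list of 20 genes, of which 7 to 9 were measured after doxycycline or in the tet comparisons. Their medians were -0.01 after 4 h and 0.17 after 10 h of doxycycline, while PHO3 stood at 1.10 and 1.51. PDC5, for a pyruvate decarboxylase that uses thiamine diphosphate, was the only one 1.5-fold higher on both arrays, after 4 h, at 1.39 and 0.64 (mean 1.01 ± 0.54). The list had medians of -0.04 and -0.19 when the tet strain was compared and, in the deletion, over 17 genes, 0.01, and none of its tested genes passed (limma).

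**Figure D5:**
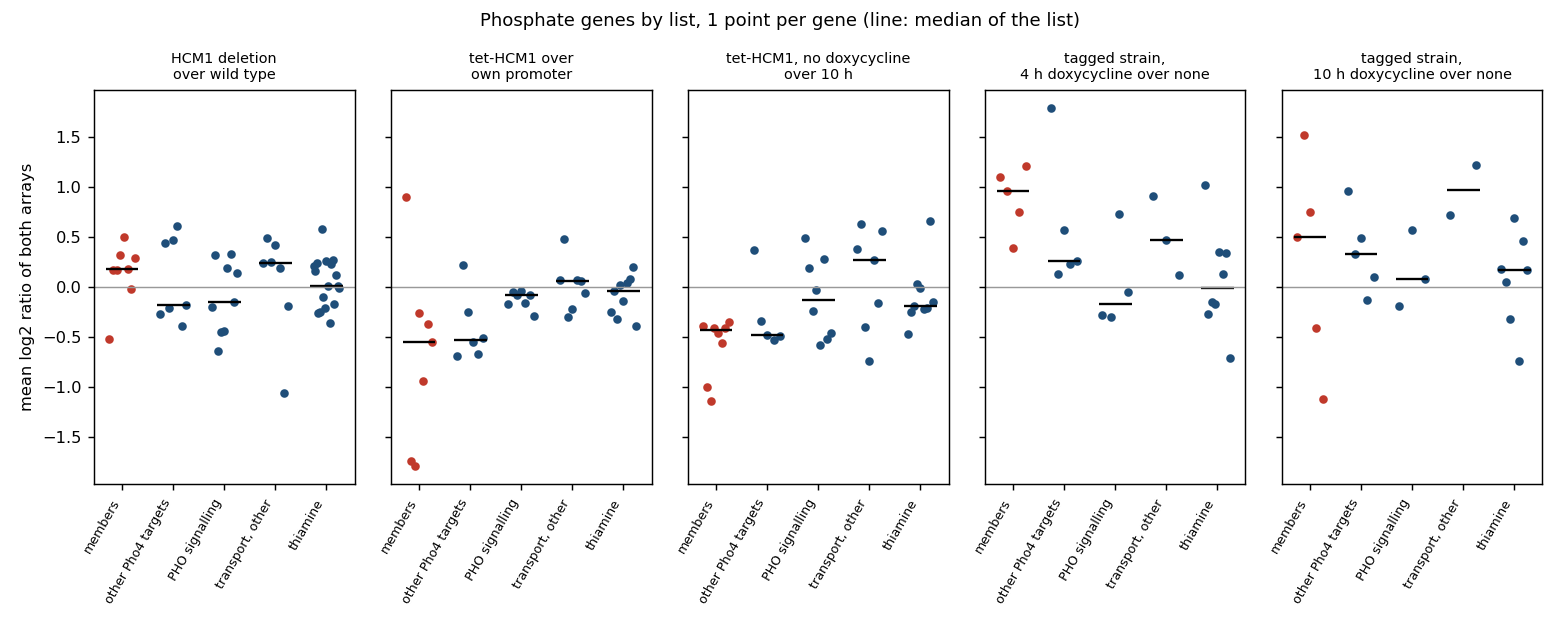
Mean log2 ratio of both arrays for the 10 PHO genes (red) and for 4 further lists (blue), 1 point per gene and 1 panel per comparison, with lines at list medians. In the tet strain over the tagged strain the PHO genes and the other Pho4 targets had medians of -0.55 and -0.53, and the other 3 lists lay between -0.08 and 0.06.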

How the data were processed

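The deposited values are log2 ratios of the 2 channels of an array, normalized by the authors in a way not given in the sources used here; per the labels, Exp 1 is Cy5/Cy3 and Exp 2 Cy3/Cy5, so both have the same numerator. In all 12 columns 2 raised to the value fell on a grid of thousandths for 100% of values. For natural logarithms the share was at most 17.5% in 11 columns. It was 93.8% in the first column of tagged cells over wild type, so this check alone does not settle its base. The second column, which mirrors it, had 15.2%. Arrays were centred on their medians. A comparison is the mean of its arrays, counted as 1 replicate. Genes were tested with limma 3.58.1 (R 4.3.3): the residual is the mean square of at least 2 control comparisons, moderated over all ORFs (squeezeVar), leaving out a control when it is tested; p-values were adjusted by Benjamini-Hochberg over the ORFs tested. The test takes control ratios as 0, so an effect of doxycycline widens the residual. Scripts were tested on simulated data. Arrays with the same Exp number deviated together (r from 0.56 to 0.68 over 10 pairs of comparisons; Exp number and dye coincide), so fits with that number as a block are given. The PHO genes, lists and tests were chosen with earlier results of these data known. All 10 PHO genes are described. Of other lists, genes past 1.5-fold on each array are named, with PHO4 and some genes with 1 array or with arrays on opposite sides of 0. Gene names are from RefSeq (R64). Sequences were not used here.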

Additional observations from a re-analysis of the deposited data

Results flagged for a closer look

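Among effects of doxycycline set side by side, 4 h against 10 h in tagged cells and the tet against the tagged strain at 10 h, PHO89 and PHO8 had every array of one on one side of 0 and every array of the other on the opposite side. PHO89 differed by 1.86 (log2) between tagged cells treated for 4 h and for 10 h, with means of 0.75 and -1.11. PHO8 differed by 0.80 between the same times, with means of 0.39 and -0.41. PHO8 also differed by 0.96 between the effect of 10 h of doxycycline in the tet strain (0.56) and in the tagged strain (-0.41); that difference did not pass with the control residual (limma, adjusted p = 0.316). The comparisons of a time pair share their untreated denominator. Only PHO genes were screened in this way, so the share of all ORFs that reversed is not known. Both times had both arrays for PHO3, PHO5, PHO8 and PHO89. At 10 h both strains had them for PHO3, PHO5, PHO8 and PHO11.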

How the results depend on the processing

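The 11 values of single PHO genes past 1.5-fold on both arrays kept their direction under each alternative that measured them, but calls did not keep their side of the threshold. Taking arrays as replicates counts only the spread between arrays. PHO genes called then went from 0 to 4 in the tet strain over the tagged strain, beside 5.58% of all ORFs. They went from 0 to 3 in the untreated over the treated tet strain, beside 21.2%. In tagged cells they went from 0 to 3 at 4 h, beside 12.3%, and from 1 to 5 at 10 h, beside 33.7%. In each derived ratio they went from 0 to 2. Beside this stood 33.5% of all ORFs for the doxycycline effect and 7.42% for the tet over the tagged strain. With the replicate block as well, PHO genes called were 2 in the deletion, beside 19.8% of all ORFs. In those comparisons they were 7, 7, 7 and 6, beside 20.9%, 46.6%, 33.3% and 53.6%. In the derived ratios they were 5 and 6, beside 54.1% and 30.7%. The block cancels in the mean of a dye-swapped pair. At 4 h, 2 of 4 were called without the 10 h control, beside 2.93% of all ORFs. At 10 h the call of PHO3 was lost, leaving 0, with values as deposited, the tagged columns averaged, the length trend removed, a value on either array, or no tagged control, and without either replicate (0 and 0).

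The median of the PHO genes ranged, without replicate 1 or 2, from -0.91 to -0.39 in the tet strain over the tagged strain, from -0.61 to -0.45 in the untreated over the treated tet strain, from 0.40 to 0.87 at 4 h, from 0.46 to 0.61 at 10 h, and from -0.29 to 0.26 in the doxycycline effect of the tagged less the tet strain, where it rests on few genes. At 4 h it was 1.04 with values as deposited, 0.88 with the length trend removed, 0.58 with a value on either array or arrays as replicates, and 0.71 with the replicate block. At 1.5-fold instead of 2-fold, 2 PHO genes were lower in the untreated over the treated tet strain, 3 higher at 4 h and 2 higher at 10 h.

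Signal over background is not in the deposited values, so its bearing on weak features is not tested here. The planned search for promoter motifs was not run, as no sequences were used. A fit with the prior from the tested ORFs and the contrast between times were added after the data were seen.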

Other observations

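Over the 9 arrays that measured PHO5, PHO11 and PHO12 alike, the ORFs most like their mean, of 1816 with a value on each, were VTC1 (Pearson r = 0.93), a polyphosphate synthesis gene controlled by Pho4, FIT3 (0.93), ARC1 (0.92), SUI3 (0.92) and YGL039W (0.92). VTC1 stood at 0.61 ± 0.21 in the deletion, -0.54 ± 0.21 in the tet strain over the tagged strain, -0.48 ± 0.23 in the untreated over the treated tet strain, and 0.57 ± 0.33 and 0.49 ± 0.30 in tagged cells treated for 4 h and 10 h. The 9 arrays include the 1 of tagged cells over wild type, whose sign is unsettled. The arrays share strains and dye orientation, and with Spearman's coefficient or comparison means 0 of these 5 ORFs stayed among the 5 most alike. PHO3 ranked 71 and PHO8 261 in that order.

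Neighbours of the PHO genes, looked at after the data were seen, did not all move with them. PBY1, on the other side of PHO5 from PHO3, stood at -0.20 ± 0.14 in the tet strain over the tagged strain, and IMD2, next to PHO12, at 0.08 ± 0.13. CWC21, a splicing factor gene next to PHO8, stood at 1.18 ± 0.48 there and at 1.60 ± 0.43 in the untreated over the treated tet strain, where PHO8 was below 0. YAR068W, next to PHO11, stood at -0.26 ± 0.33 in the tet strain over the tagged strain. In the untreated over the treated tet strain, YAR068W stood at -0.87 ± 0.26, beside -1.0 for PHO11.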
